A study of Ovis aries with 91 samples.

Results

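The 4 genes described here, ENSOARG00000017490, ENSOARG00000019153, ENSOARG00000007268 and ENSOARG00000012705, are 4 of the 13803 sheep genes listed over 3 tables of RNA levels. They are known only by these Ensembl IDs, and they were picked by ID because each had been among the genes with the largest excess of the left over the right atrial appendage. The first pair led this ranking in whole tissue and the second pair in isolated cardiomyocytes, the contracting muscle cells. All 4 were listed in each of the 3 tables and passed the filter on low values in each, so none is missing below. The excess of left over right therefore chose them, and it is given as a description with no test. Their change with state, in the appendages and in the posterior left atrium, was not used to choose them and was tested. The ranking did keep only genes left-higher in every sheep of its table, which limits how far the side difference could differ between states.

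Atrial fibrillation is a fast, irregular atrial rhythm, and these sheep were studied in a model driven by a pacing device in the right atrium. Control sheep were labelled sham (S3, S4, G21, G32, G36) or control (C1), and the other sheep carried the labels transition or chronic. The sources used here do not give age, breed, the length of pacing or what a sham sheep received. In whole tissue, 3 control sheep (S3, S4, C1), 3 transition sheep (D24, D27, D30) and 3 chronic sheep (D15, D16, D19) each gave a left and a right appendage. Cardiomyocytes came from both appendages of 3 control sheep (S3, S4, C1), 3 transition sheep (D23, D24, D27) and 3 chronic sheep (D16, D19, D20), so 7 sheep are in both tables. Posterior left atrium came from 6 control sheep (G21, G32, G36, S3, S4, C1) and 6 transition sheep (G5, G13, G26, G34, D24, D27). The titles of the posterior samples number the sheep otherwise, and that of sheep C1 holds S3. The sheep names given in the labels were used. The 4 transition sheep with G numbers are also titled saline and the control sheep with G numbers are not, so among the G sheep saline and transition cannot be told apart.

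The atrial appendages are pouches on each atrium, and the posterior left atrium is the wall of the left atrium near the pulmonary veins. The left and right atria have different embryonic programmes, which leaves genes that stay unequal between them in adult life. The pulmonary vein region is known as a place where atrial fibrillation is often triggered. None of the 13803 IDs matched an entry of the gene table used here (0 matched), so the 4 genes have no symbol, position, role or sequence in this text. For the same reason the labelled cell type of the cardiomyocyte samples could not be checked against its marker genes. In bulk samples, fewer cells of a type and less RNA per cell cannot be told apart.

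Levels are log2 CPM, that is reads relative to the library size as scaled by the authors, in whole tissue and cardiomyocytes. Listed reads per library ran from 6241967 to 22382458 in whole tissue and from 5305524 to 12434418 in cardiomyocytes. Between 44 and 12586 reads stood behind each value of the 4 genes there. The posterior left atrium table is on a log2 scale of its own with an unknown depth. The 3 tables were normalised separately, so no test runs across them, and as gene lengths are not used here, levels are not compared between genes.

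Every one of the 4 genes was higher on the left on average in both appendage tables, but by different amounts and with different regularity. In whole tissue the mean left minus right difference was 1.71 ± 0.58 log2 units for ENSOARG00000017490 (SD, n = 9 sheep), which is 3.27-fold. The difference was 1.55 ± 0.70 for ENSOARG00000019153, also with 9 sheep. It was 2.91 ± 2.04 for ENSOARG00000007268 and 0.62 ± 0.80 for ENSOARG00000012705. The first pair was left-higher in 9 of 9 sheep, ENSOARG00000007268 in 8 of 9 and ENSOARG00000012705 in 7 of 9. Of all genes tested in whole tissue, 2.48% were left-higher in every sheep.

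In cardiomyocytes each of the 4 was left-higher in 9 of 9 sheep, where 4.26% of all genes tested were. The mean difference there was 0.79 ± 0.60 for ENSOARG00000017490 and 1.55 ± 0.32 for ENSOARG00000019153. It was 2.89 ± 0.72 for ENSOARG00000007268, a 7.39-fold excess, and 2.26 ± 0.69 for ENSOARG00000012705, a 4.78-fold excess. Since this contrast chose the genes, nothing is read from these counts.

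The word leading holds only within the ranking that picked them. Among the 224 genes of whole tissue that were left-higher in every sheep and above the median level, ENSOARG00000017490 and ENSOARG00000019153 were 1st and 2nd, and the gene in 3rd place differed by 1.30 log2 units. Among the 386 such genes of cardiomyocytes, ENSOARG00000007268 and ENSOARG00000012705 were 1st and 2nd, followed by a gene at 1.70 and by ENSOARG00000019153 in 4th place. Over all genes tested, whatever their level, the mean left minus right difference put ENSOARG00000007268 7th of 12333 in whole tissue and 8th of 12279 in cardiomyocytes. The largest mean difference of any gene was 6.76 in whole tissue and 5.80 in cardiomyocytes. ENSOARG00000012705 was 215th in whole tissue and 17th in cardiomyocytes, and ENSOARG00000017490 was 27th and 125th.

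**Figure D1:**
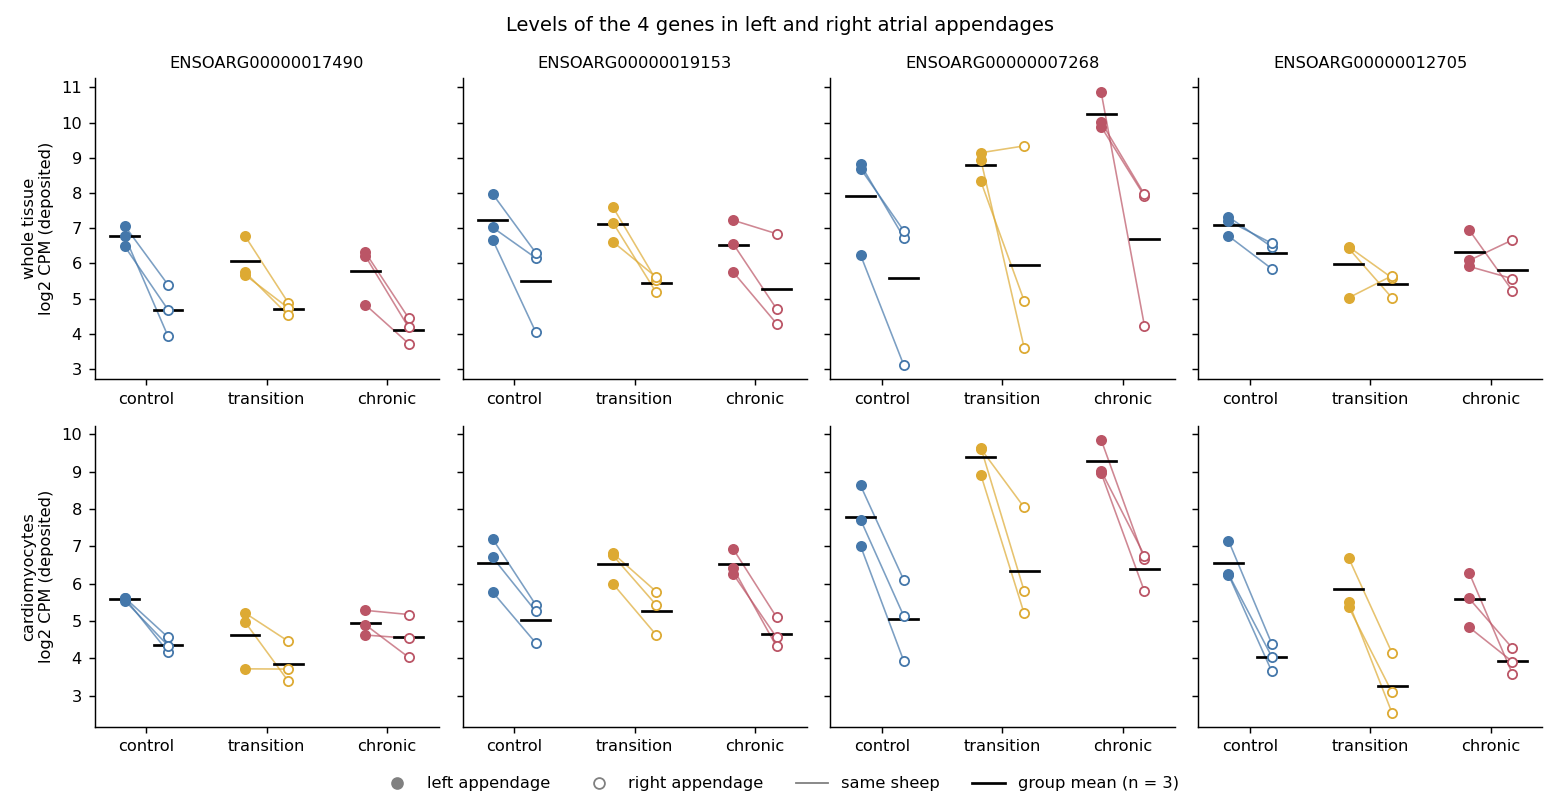
Levels of the 4 genes in each appendage sample, in log2 CPM on the vertical axis, with whole tissue in the upper row and cardiomyocytes in the lower row. Filled circles are left appendages, open circles right appendages, thin lines join the samples of a sheep and black bars are means of 3 sheep. The lines fall from left to right in all sheep except D27 for ENSOARG00000007268 and D16 and D27 for ENSOARG00000012705, all in whole tissue, and the line of ENSOARG00000017490 in cardiomyocytes of D27 is flat.

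ENSOARG00000007268 had the widest differences between sheep. In whole tissue of control sheep its left level was 8.81 in S3, 8.69 in S4 and 6.24 in C1, and its right level 6.73, 6.92 and 3.10. Sheep C1 was the lowest of 9 sheep on both sides.

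In transition sheep the left level of this gene was 8.33 in D24, 9.14 in D27 and 8.94 in D30, and the right level 4.94, 9.34 and 3.60. The right appendage of D27 thus held more of this RNA than its left appendage, and more than any other right appendage. In chronic sheep the left level was 10.87 in D15, 9.88 in D16 and 10.02 in D19, and the right level 4.22, 7.91 and 7.96. The 3 chronic left appendages were above the 15 other whole tissue appendage samples, and no right group kept to a narrow range. As the gene was chosen as left-higher, the right samples among those 15 say nothing on state in the left appendage. The left chronic change did not pass the test (adjusted p = 0.293, limma), and the share of all genes with such a gap was not counted.

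Cardiomyocytes showed the same 2 sheep at the ends of the right side for ENSOARG00000007268. Their right level was 3.92 in C1 and 8.04 in D27, and the 7 other sheep lay between 5.13 and 6.75. The left level was 8.63 in S4, 7.72 in S3 and 7.01 in C1 among controls. It was 9.64 in D23, 8.92 in D24 and 9.61 in D27 in transition, and 8.96 in D16, 9.85 in D19 and 9.02 in D20 in the chronic state. All 6 left samples of transition and chronic sheep were above the 3 left controls. The share of all genes with such a gap was not counted. Neither change passed the test (adjusted p = 0.142 in transition and 0.136 in the chronic state, limma).

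The spread of ENSOARG00000007268 within groups was large beside that of other genes. In right appendages of whole tissue its SD within groups was 2.46 log2 units, above that of 99.8% of genes, for which the median SD was 0.305. In right appendage cardiomyocytes it was 1.11, above 98.5% of genes. On the left it was 0.926 in whole tissue and 0.599 in cardiomyocytes. In whole tissue the left minus right difference of this gene ran from −0.19 in D27 to 6.64 in D15, where the left level was 99.9-fold the right level.

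ENSOARG00000012705 was the one gene of the 4 whose left and right samples did not overlap in a table. That table, cardiomyocytes, is the one in which it was picked as left-higher, so the gap is partly fixed by the choice. The share of all genes with such a gap was not counted. In cardiomyocytes its left levels ran from 4.83 in D16 to 7.15 in S4, with a median of 6.24, and its right levels from 2.54 in D24 to 4.39 in S4, with a median of 3.91. The lowest right value rests on 44 reads. In whole tissue the left levels ran from 5.02 in D27 to 7.32 in S3 and the right levels from 5.02 in D30 to 6.66 in D16. The sides overlapped there over most of that range.

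The 2 right-higher samples of ENSOARG00000012705 in whole tissue came from D16, with 6.08 on the left and 6.66 on the right, and from D27, with 5.02 and 5.65. In cardiomyocytes of the same 2 sheep the left level was higher, by 0.92 in D16 and by 2.28 in D27. The mean difference in this table was 2.52 ± 0.28 in control, 2.59 ± 0.34 in transition and 1.65 ± 0.94 in chronic sheep (SD, n = 3 each).

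ENSOARG00000017490 had its larger side difference in whole tissue. There the left levels ran from 4.83 in D19 to 7.07 in C1, and the right levels from 3.72 in D19 to 5.39 in C1. The difference in a sheep was lowest in D27, at 0.94, and highest in S3, at 2.84. In cardiomyocytes it was 1.45 in S3, 1.06 in S4 and 1.21 in C1 among controls. It was 1.59 in D23, 0.76 in D24 and 0.0066 in D27 in transition, and 0.11 in D16, 0.085 in D19 and 0.87 in D20 in the chronic state. The side difference of this gene was therefore 0.11 or less in cardiomyocytes of 3 of the 6 transition and chronic sheep and in none of the controls, but D23 lay above all 3 controls. Its change with state did not pass the test (adjusted p = 0.880 in transition and 0.282 in the chronic state, limma). The share of all genes with such a pattern was not counted.

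ENSOARG00000019153 had the most even side difference in cardiomyocytes. There it ran from 1.03 in D27 to 2.09 in D20, and the mean was 1.53 ± 0.22 in control, 1.24 ± 0.19 in transition and 1.87 ± 0.20 in chronic sheep. In whole tissue it ran from 0.38 in D15 to 2.64 in C1. The right level of D15 was 6.84, the highest right level of this gene, and that of C1 was 4.04, the lowest.

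**Figure D2:**
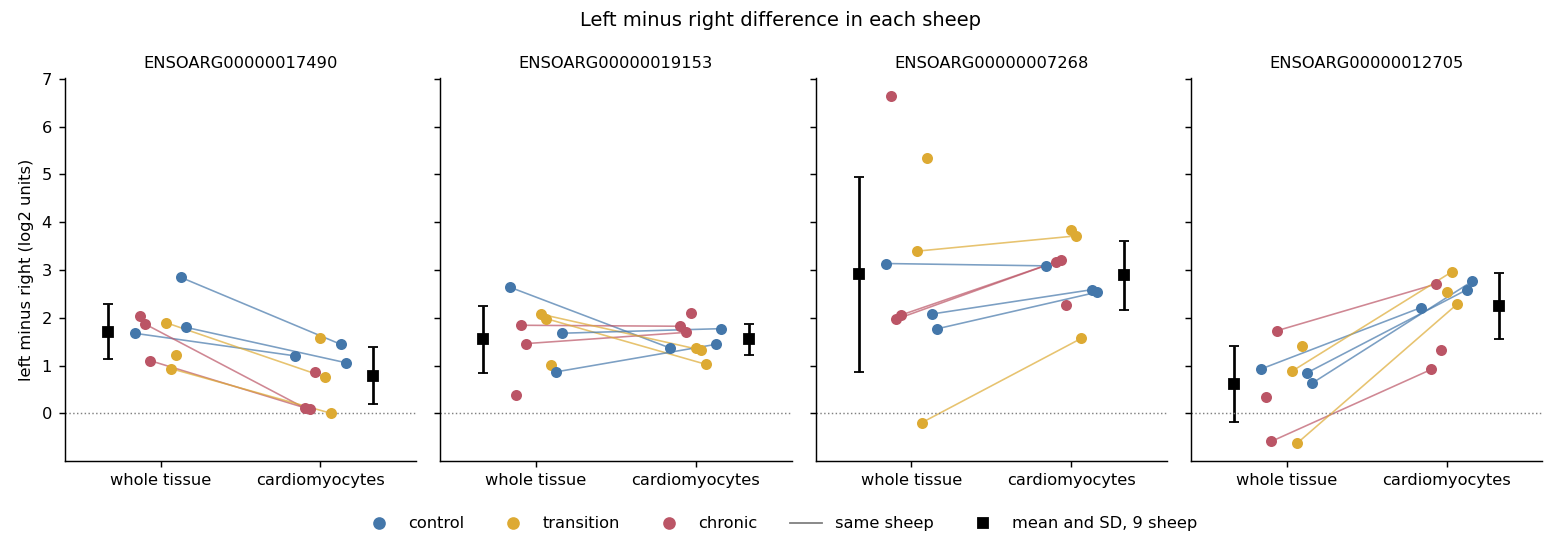
Left minus right difference of each gene in each sheep, in log2 units on the vertical axis, in whole tissue and in cardiomyocytes. Circles are sheep coloured by state, lines join the 7 sheep present in both tables, squares with bars are the mean and SD of 9 sheep, and the dotted line marks no difference. The lines of ENSOARG00000017490 all go down from whole tissue to cardiomyocytes and those of ENSOARG00000012705 all go up.

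The 7 sheep with both kinds of sample let the side difference in tissue be set beside that in cardiomyocytes of the same sheep. For ENSOARG00000017490 it was 1.73 ± 0.62 in whole tissue and 0.67 ± 0.60 in cardiomyocytes (SD, n = 7), and larger in tissue in 7 of 7 sheep. The order was opposite for ENSOARG00000012705, at 0.55 ± 0.86 in tissue and 2.35 ± 0.68 in cardiomyocytes, larger in cardiomyocytes in 7 of 7. ENSOARG00000007268 was at 2.03 ± 1.16 and 2.84 ± 0.69, larger in cardiomyocytes in 6 of 7. ENSOARG00000019153 stood at 1.79 ± 0.55 and 1.49 ± 0.29, larger in tissue in 4 of 7 and in cardiomyocytes in 3. As each pair was ranked highest in one of the tables, a larger difference in that table is partly fixed by the choice, and it was not tested.

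The level itself shows on which side these 2 genes differed between the tables. Cardiomyocyte minus tissue levels were taken in the same sheep and side and set against the median of the 11796 genes kept in both tables. On the right, ENSOARG00000012705 was lower in cardiomyocytes by a mean of −2.06 ± 0.54 log2 units and in 7 of 7 sheep. On the left its mean was −0.26 ± 0.58. ENSOARG00000017490 stood at −0.85 ± 0.58 on the left, below 0 in 6 of 7 sheep, and at 0.22 ± 0.78 on the right. The larger side difference of ENSOARG00000012705 in cardiomyocytes thus came with a lower right level, and the smaller one of ENSOARG00000017490 with a lower left level. The former gene was picked for its side difference in these cardiomyocytes and the latter in this tissue, so both results are partly fixed by the choice. They were not tested, and the share of all genes below 0 in as many sheep was not counted.

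Ordered by mean level in whole tissue, ENSOARG00000007268 went from left chronic (10.26) through left transition (8.80), left control (7.91), right chronic (6.70) and right transition (5.96) to right control (5.59). Left chronic was the only group that did not overlap the next. The cardiomyocyte order of the gene was left transition (9.39), left chronic (9.28), left control (7.78), right chronic (6.40), right transition (6.35) and right control (5.05). There the left control group overlapped neither of its neighbours, and all other neighbours overlapped. In both tables the control group had the lowest mean on each side. For this order and those below, the share of all genes with groups apart was not counted.

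For ENSOARG00000012705 the control group had the highest mean on each side in both tables. In whole tissue its order was left control (7.10), left chronic (6.32), right control (6.29), left transition (5.97), right chronic (5.82) and right transition (5.42), and every group overlapped the next. In cardiomyocytes the order was left control (6.55), left transition (5.85), left chronic (5.58), right control (4.03), right chronic (3.93) and right transition (3.26), with a gap only between left chronic and right control.

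ENSOARG00000017490 in whole tissue went from left control (6.78) through left transition (6.07) and left chronic (5.78) to right transition (4.71), right control (4.67) and right chronic (4.12), with every neighbour overlapping. In cardiomyocytes its left control group (5.60) did not overlap left chronic (4.94), and the groups from there down overlapped, through left transition (4.64), right chronic (4.58) and right control (4.36) to right transition (3.85). The whole tissue order of ENSOARG00000019153 was left control (7.22), left transition (7.12), left chronic (6.51), right control (5.49), right transition (5.43) and right chronic (5.28), and all neighbours overlapped. In cardiomyocytes its 3 left groups had means of 6.56 in control, 6.53 in chronic and 6.52 in transition. The right groups had means of 5.28 in transition, 5.03 in control and 4.66 in chronic. Left transition, the lowest of the left groups by mean, did not overlap right transition, but left control did, with 5.77 in C1 against 5.79 in the right appendage of D27. All other neighbours overlapped.

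None of the 4 genes passed the test for a change with state in the appendages. Transition and chronic sheep were each compared with the same control sheep, in each appendage and table, with limma over all genes and Benjamini-Hochberg adjustment. Of 32 comparisons 0 had an adjusted p under 0.05, 8 had an unadjusted p under 0.05, and with voom weights on the recovered reads 0 passed. In whole tissue, 1.49% of all genes passed for transition and 7.49% for chronic on the left, and 0.624% and 1.26% on the right. In cardiomyocytes these shares were 3.4% and 7.64% on the left and 0.652% and 5.16% on the right. The lowest adjusted p among the 32 was 0.122, for ENSOARG00000017490 in left chronic tissue.

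The estimates nevertheless differed in sign between the genes. The change of ENSOARG00000007268 against control was positive in 8 of 8 comparisons, from 0.37 to 2.34 log2 units. For ENSOARG00000012705 it was negative in 8 of 8, from −1.13 to −0.10. These 16 signs held under every other scaling tried, but with 1 sheep left out both right tissue estimates of ENSOARG00000007268 and the right chronic cardiomyocyte estimate of ENSOARG00000012705 changed sign. ENSOARG00000017490 had a negative estimate in 6 of 8, and scaling by library totals turned its right transition tissue estimate to −0.0086. ENSOARG00000019153 had one in 7 of 8, and recentring the columns turned its left cardiomyocyte estimates to 0.0074 in transition and 0.0058 in the chronic state. As the comparisons share control sheep, and left and right samples share sheep, these are not 8 independent observations.

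For ENSOARG00000007268 the largest estimate was in left chronic tissue, at 2.34 ± 1.30 (SE, 95% interval −0.40 to 5.08, adjusted p = 0.293, limma). In left cardiomyocytes the change was 1.61 ± 0.60 in transition (interval 0.35 to 2.87, adjusted p = 0.142) and 1.49 ± 0.60 in the chronic state (interval 0.24 to 2.75, adjusted p = 0.136). When each appendage was fitted alone, which leaves the right samples out, the left chronic change passed in both tables. It was then 2.34 ± 0.58 in tissue (adjusted p = 0.0339) and 1.49 ± 0.38 in cardiomyocytes (adjusted p = 0.0452). In those fits 8.28% of all genes passed in tissue and 6.42% in cardiomyocytes. Over all alternatives the adjusted p ran from 0.0339 to 0.585 in tissue and from 0.0452 to 0.379 in cardiomyocytes, where the change also passed without D27. Leaving out control sheep C1 gave 1.50 in tissue and 1.11 in cardiomyocytes.

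On the right, single sheep set the sign of this gene in tissue. The transition change there was 0.37 ± 1.30 with all sheep, −1.32 without D27, −0.87 without C1 and 1.55 without D30. The chronic change was 1.11 ± 1.30 with all sheep, −0.13 without C1 and 2.35 without D15. In right cardiomyocytes the change was 1.30 ± 0.60 in transition (adjusted p = 0.353), 0.74 without C1 and 0.46 without D27.

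For ENSOARG00000012705 the largest estimate was in left transition tissue, at −1.13 ± 0.43 (interval −2.05 to −0.21, adjusted p = 0.224). All 3 transition sheep lay below all 3 controls there, but the share of all genes that did so was not counted. Without D27 the estimate was −0.66. In left chronic cardiomyocytes it was −0.97 ± 0.42 (adjusted p = 0.173), and without D16 it was −0.60. In right chronic cardiomyocytes it was −0.10 ± 0.42, with values from −0.29 to 0.079 when 1 sheep was left out. ENSOARG00000017490 stood at −0.99 ± 0.38 in left chronic tissue (adjusted p = 0.122) and at −0.96 ± 0.36 in left transition cardiomyocytes (adjusted p = 0.140). The 3 left control cardiomyocyte samples of the latter gene were within 5.55 to 5.63, above all 6 left samples of the other states. How many of all genes show such a gap was not counted. Without D19 the chronic tissue estimate of ENSOARG00000017490 was −0.51, and without D27 its transition cardiomyocyte estimate was −0.50. For ENSOARG00000019153 no estimate had an unadjusted p under 0.05, and the largest was −0.71 ± 0.59 in left chronic tissue. That estimate was −0.33 without D19, −0.34 without S4 and −1.07 without D15.

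**Figure D3:**
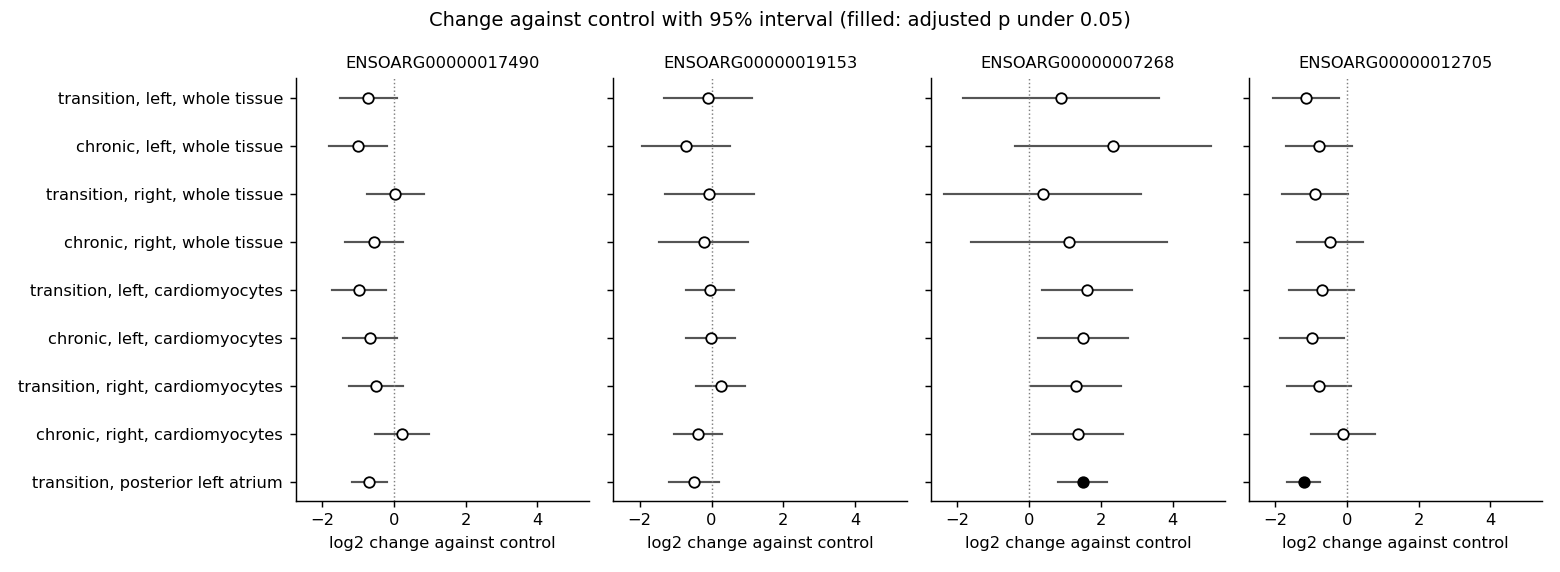
Change of each gene against control in log2 units (horizontal axis), with its 95% interval from limma, for the 8 appendage comparisons and the posterior left atrium (rows). Filled circles have an adjusted p under 0.05 and are the posterior left atrium values of ENSOARG00000007268, at 1.49, and ENSOARG00000012705, at −1.21; all points of ENSOARG00000007268 lie above 0 and all of ENSOARG00000012705 below it.

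No difference between chronic and transition sheep passed the test in the 4 genes. Of 16 comparisons 0 had an adjusted p under 0.05 and 0 an unadjusted p under 0.05, with differences from −0.62 to 1.45. Over all genes, 0% passed in either appendage of whole tissue and 0.00814% in each appendage of cardiomyocytes. The largest difference, 1.45 ± 1.30 in left tissue for ENSOARG00000007268, had an interval from −1.29 to 4.19, which leaves room for changes in either direction.

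Whether the side difference itself changed with state was tested as the left change minus the right change. Of 16 such comparisons 0 had an adjusted p under 0.05, 1 had an unadjusted p under 0.05, and with voom weights 0 passed. The ranking kept only genes left-higher in every sheep of its table, so a side difference reversed in a state was barred there. A lack of change is thus partly fixed by the choice in the table that picked each pair. Over all genes 0.0243% passed for transition and 0% for chronic in whole tissue, and 0% and 0.358% in cardiomyocytes. The 1 comparison was ENSOARG00000017490 in chronic cardiomyocytes, where the side difference was 1.24 ± 0.19 in control and 0.36 ± 0.45 in chronic sheep (SD, n = 3 each). Its difference of −0.88 ± 0.37 (SE, interval −1.65 to −0.11) had an adjusted p of 0.282. ENSOARG00000012705 had a similar estimate there, −0.87 ± 0.44, with an adjusted p of 0.372. With 1 sheep left out it ran from −0.50 without D16 to −1.40 without D19, and that of ENSOARG00000017490 from −1.14 to −0.75.

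Changes with state that passed the test were found in the posterior left atrium. Of the 4 genes, ENSOARG00000007268 rose and ENSOARG00000012705 fell in transition sheep, and the other 2 did not pass the test. Over all genes tested in that region 17.5% passed, 8.84% higher and 8.68% lower, so a gene that passes is not rare there. Whether a change differed between this region and the appendages was not tested.

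ENSOARG00000007268 ranged from 8.33 in S3 to 10.36 in S4 among the 6 controls, with a median of 9.48. Among the 6 transition sheep it ranged from 10.66 in D27 to 11.31 in G13, with a median of 10.89. All transition sheep lay above all controls, as 4.28% of genes did. The mean was 9.49 ± 0.86 in control and 10.94 ± 0.27 in transition sheep (SD, n = 6 each), and the modelled change was 1.49 ± 0.32 log2 units (SE), a 2.81-fold rise (adjusted p = 0.00603, limma). Both sets of sheep showed it, with 1.65 among G sheep and 1.26 among sheep named S, C or D, and the groups did not overlap within either set. The sheep named S, C or D alone, 3 against 2, did not pass (adjusted p = 0.270). Over all alternatives the adjusted p ran from 0.00334 to 0.270.

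Sheep C1 did not keep its low place for this gene. It held the lowest level of ENSOARG00000007268 in both appendages of both tables, whereas in the posterior left atrium its 10.35 was the second highest of the 6 controls. Sheep S3, at 8.33, was the lowest there. Both places rest on the sheep names in the labels, as the title of the posterior sample of C1 holds S3.

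ENSOARG00000012705 ranged from 7.38 in S3 to 8.56 in C1 among controls, with a median of 7.82, and from 5.95 in D24 to 6.96 in G13 among transition sheep, with a median of 6.77. All transition sheep lay below all controls, as 3.28% of genes did. The mean went from 7.85 ± 0.46 to 6.66 ± 0.36 (SD, n = 6 each), and the gene fell by 1.21 ± 0.21 on the log2 scale (SE, adjusted p = 0.00201, limma). The change was −0.91 among G sheep and −1.63 among sheep named S, C or D, without overlap in either set. The latter set alone gave an adjusted p of 0.0552, within a range of 0.00125 to 0.0552 over all alternatives.

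ENSOARG00000017490 was close to the threshold, at −0.68 ± 0.23 (adjusted p = 0.0528). Its mean was 6.54 ± 0.33 in control and 5.88 ± 0.53 in transition sheep, and 5 of the 6 transition sheep were at 6.13 or lower while G34 stood at 6.79, within the control range of 6.05 to 6.88. Without G34 the change was −0.84 (adjusted p = 0.00669) and without control sheep G36 it was −0.83 (adjusted p = 0.0295), in a range of 0.00669 to 0.289 over all alternatives. ENSOARG00000019153 was at 6.57 ± 0.72 in control and 6.10 ± 0.54 in transition sheep, and its change of −0.49 ± 0.32 (interval −1.18 to 0.21) did not pass (adjusted p = 0.335).

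**Figure D4:**
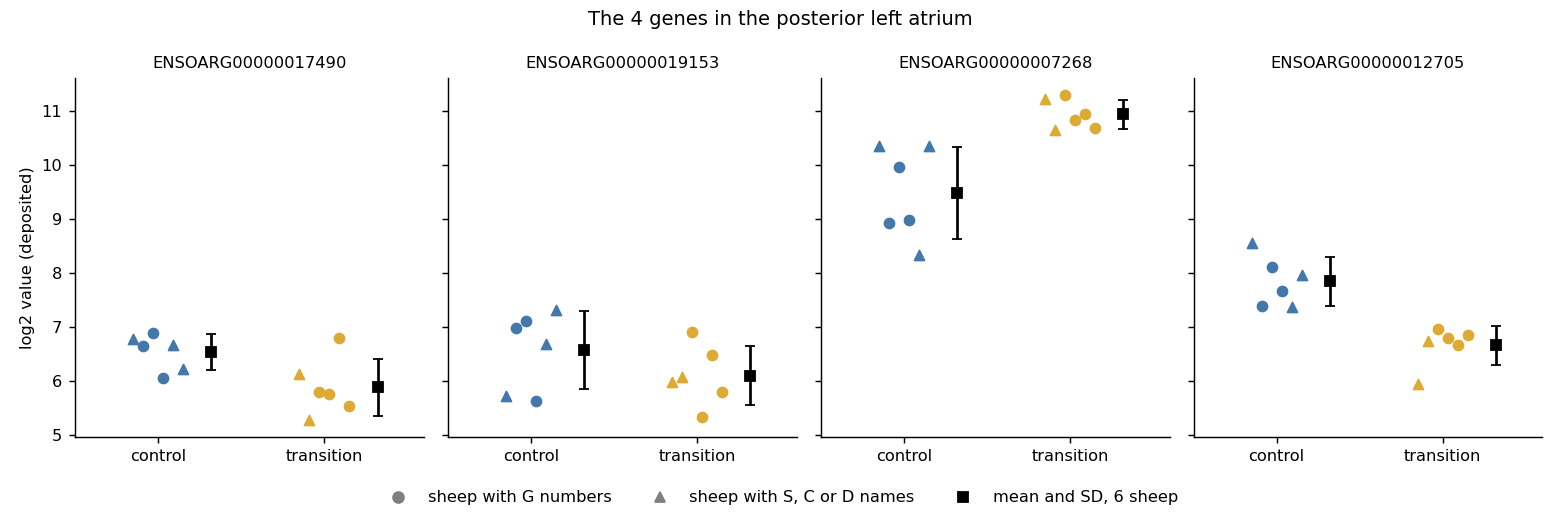
Level of each gene in the posterior left atrium, on the deposited log2 scale (vertical axis), in 6 control and 6 transition sheep. Circles are sheep with G numbers, triangles sheep with S, C or D names, and squares with bars the mean and SD. Control and transition sheep are apart for ENSOARG00000007268 (up to 10.36 against 10.66 or more) and ENSOARG00000012705 (7.38 or more against up to 6.96).

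Set beside the appendages of the same sheep, the posterior left atrium ranked above the right appendage for all 4 genes and mostly above the left one for ENSOARG00000007268 and ENSOARG00000012705. By the sheep names in the labels, 5 sheep had all 3 regions in whole tissue (S3, S4, C1, D24, D27). In them each gene was ranked among the 11704 genes kept in both tables. The posterior left atrium was above the right appendage in 5 of 5 sheep for each of the 4 genes. The genes were chosen for a right level low beside the left, the first pair in these same whole tissue samples. This order is thus partly fixed by the choice, and the share of all genes that show it was not counted. ENSOARG00000007268 stood above 98.9% of genes in the posterior left atrium on average, above 94.4% in the left and above 72.7% in the right appendage. For ENSOARG00000012705 these shares were 90.8%, 83.6% and 79.2%, and for both genes the posterior left atrium was above the left appendage in 4 of 5 sheep.

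The first pair had the left appendage on top. ENSOARG00000017490 stood above 82.5% of genes in the posterior left atrium, 84.9% in the left and 57.1% in the right appendage, and the posterior left atrium was above the left appendage in 1 of 5 sheep. For ENSOARG00000019153 the shares were 84.0%, 91.3% and 69.1%, and it was above in 0 of 5. These ranks come from tables normalised separately and were not tested. The first pair was picked for left levels high beside the right in these same whole tissue samples, and the second pair in cardiomyocytes. The contrast between the pairs is thus partly fixed by the choice.

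The 4 genes did not move as a block. Across the 18 whole tissue samples, which share the side difference that chose the genes, Pearson's r between pairs of them ran from 0.33 for ENSOARG00000007268 and ENSOARG00000012705 to 0.64 for ENSOARG00000017490 and ENSOARG00000019153. Across the 18 cardiomyocyte samples it ran from 0.27, between ENSOARG00000017490 and ENSOARG00000007268, to 0.78, between ENSOARG00000019153 and ENSOARG00000007268.

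One gene outside the 4 had nearly the same pattern as ENSOARG00000007268. For each of the 4, the most alike of the 11796 genes kept in both tables was found by the smaller of its correlations across the 18 whole tissue and the 18 cardiomyocyte samples. For ENSOARG00000007268 this was ENSOARG00000009609, with r of 0.97 in both tables. Its left minus right difference was 2.55 in tissue and 3.0 in cardiomyocytes, and like ENSOARG00000007268 it was left-higher in 8 of 9 and 9 of 9 sheep. Its levels in the right appendage of tissue were −0.91 in C1 and 4.42 in D27, the lowest and the highest of that side, as for ENSOARG00000007268. The level in C1, below 0 log2 CPM in a library of 7414250 listed reads, is near the floor and rests on few reads.

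The 12 posterior left atrium samples were not used to find this gene. Across them r was 0.99, and after removal of the group means it was 0.98. In the samples that were searched, r after removal of the group means was 0.95 in tissue and 0.87 in cardiomyocytes. In the posterior left atrium the mean of ENSOARG00000009609 was 4.68 ± 0.75 in control and 6.10 ± 0.17 in transition sheep (SD, n = 6 each). Without positions or sequences, whether these 2 genes neighbour each other, overlap or share reads was not tested.

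The most alike genes of the other 3 were less alike. They were ENSOARG00000000177 for ENSOARG00000017490 (r = 0.72 in tissue and 0.68 in cardiomyocytes), ENSOARG00000007850 for ENSOARG00000019153 (0.78 and 0.78) and ENSOARG00000003042 for ENSOARG00000012705 (0.68 and 0.73). In the posterior left atrium these r were 0.32, 0.30 and 0.18. All of these correlations describe samples that share sheep and sides, and carry no p.

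**Figure D5:**
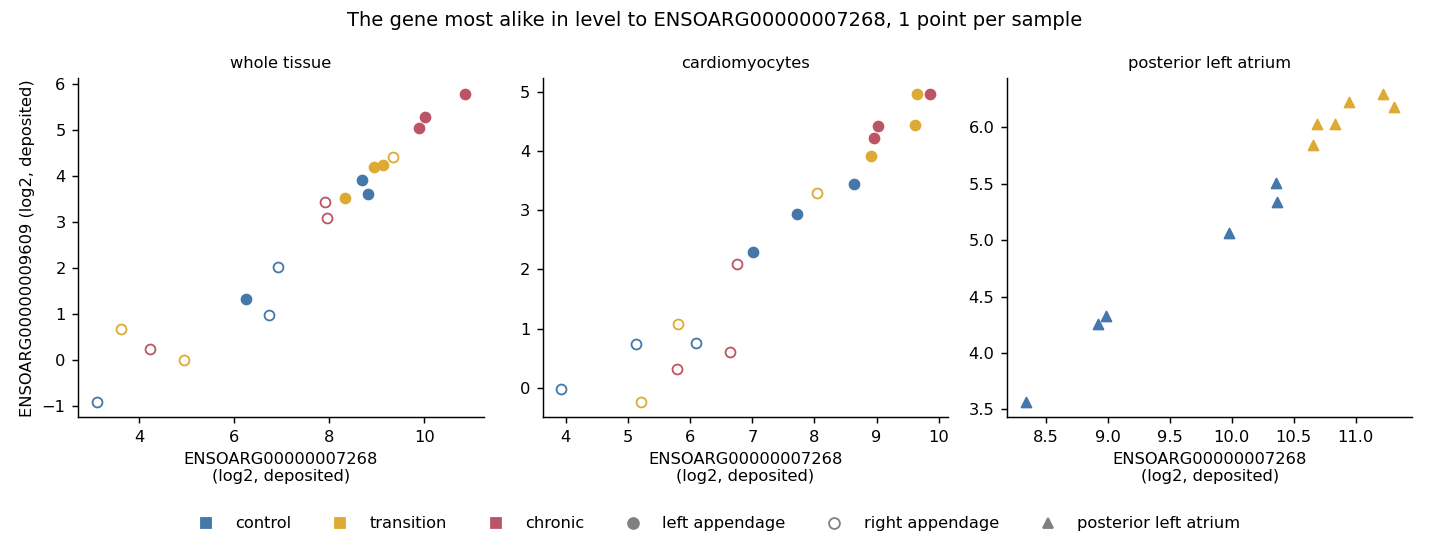
Level of ENSOARG00000009609 (vertical axis) against ENSOARG00000007268 (horizontal axis), both on the deposited log2 scale, 1 point per sample, in whole tissue, cardiomyocytes and the posterior left atrium. Filled circles are left appendages, open circles right appendages and triangles the posterior left atrium. The points follow a line in each panel, with r of 0.97, 0.97 and 0.99.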

How the data were processed

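RNA of appendage tissue, appendage cardiomyocytes and posterior left atrium was sequenced from NEBNext Ultra libraries, per the labels' protocols. Tools named, per the submitters' processing notes, are RSEM, limma, cutadapt and bcl2fastq, with neither versions nor roles. No aligner, genome build, annotation or use of strand is given in the sources used here, so overlapping, antisense or near-identical genes cannot be told apart. The authors deposited log2 values with 1 column per sheep and region, technical replicates being merged. Whole reads, to within 0.05 reads, came back from 237366 of 237366 whole tissue and 238716 of 238716 cardiomyocyte values. No reads were recovered for the posterior left atrium. The authors' scaling factors lay between 0.828 and 1.14.

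Genes with a mean log2 value below 0 were left out, which kept 12333, 12279 and 12035 genes. Using R 4.3.3, limma 3.58.1 with its trend option fitted 6 group means per appendage table with the sheep as a random block, since the sheep names in the labels pair left and right samples (consensus correlation 0.294 in tissue and 0.47 in cardiomyocytes). For the posterior left atrium the terms were state and set of sheep (G numbers against S, C or D names). Benjamini-Hochberg adjustment ran over all kept genes per table, with a threshold of 0.05. The scripts were tested on simulated data. Control joins sham sheep and C1, which the column names also call sham.

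The 4 genes were chosen with earlier results of these data known. Beyond them the naming rule admits, for each, the gene most alike in both appendage tables. Lists of marker symbols could not be used. Alternatives were voom weights, other scalings, no filter, a pseudocount of 1, each appendage alone, no replicate block or a fixed one, and each sheep left out. Library totals and single sets of sheep were chosen after seeing the data. Sheep C1 and D27 were doubted for ENSOARG00000007268 and are left out in turn where that moves a value.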

Additional observations from a re-analysis of the deposited data

Results flagged for a closer look

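The level of ENSOARG00000012705 in the posterior left atrium of transition sheep D24 was 5.95, below the 5 other transition sheep, which lay between 6.67 and 6.96. Its gap to the next sheep was 0.715 of the whole range of the group, more than is usual for 6 samples. In all 8 groups of the 4 genes were tested for such a stray sheep and 1 was found, where chance gives about 1 in 20 groups. Without D24 the change of this gene against control was −1.01 and still passed the test.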

How the results depend on the processing

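With each appendage fitted alone, 1 comparison against control passed in whole tissue and 1 in cardiomyocytes, in place of 0, both being ENSOARG00000007268 in the left chronic appendage, where 8.28% and 6.42% of all genes passed under that setting. With 1 sheep left out the cardiomyocyte count ran from 0 to 1. In the posterior left atrium 2 genes passed, and 3 with the set of sheep left out of the model (19.7% of all genes against 17.5%). With 1 sheep left out 2 to 3 passed, the third being ENSOARG00000017490 without G34 or without G36 (18.1% and 14% of all genes). Among G sheep alone 2 passed, where 6.07% of all genes did. Among sheep named S, C or D alone 0 passed, where 2.02% of all genes did. With 1 sheep left out, the background share for left chronic tissue ran from 3.57% to 7.74%, and for left chronic cardiomyocytes from 2.61% to 9.85%.

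The paired design was varied too. With no replicate block 0 comparisons passed in either appendage table, where 7.3% of all genes passed for left chronic tissue and 7.75% for left chronic cardiomyocytes. For the chronic side difference in cardiomyocytes 0.00814% of all genes then passed, against 0.358% with the block. With the sheep as a fixed replicate block 0 side differences passed, but 0% of all genes did in either table. That count could not have been otherwise and says nothing on the block.

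Signs turned only in estimates with an adjusted p of at least 0.684 under that setting. For ENSOARG00000007268, leaving out 1 sheep gave −0.13 to 2.35 for the right chronic and −1.32 to 1.55 for the right transition change in tissue. For its side difference of change this gave −0.31 to 2.02 (chronic tissue), −0.73 to 2.04 (transition tissue), −0.017 to 0.45 (chronic cardiomyocytes; −0.032 with library totals) and −0.094 to 1.04 (transition cardiomyocytes). For ENSOARG00000012705 the right chronic cardiomyocyte change ran from −0.29 to 0.079, and the side differences of change from −0.92 to 0.23 (chronic tissue), −0.68 to 0.34 (transition tissue) and −0.11 to 0.23 (transition cardiomyocytes). For ENSOARG00000017490 the right chronic cardiomyocyte change ran from −0.076 to 0.50 and the right transition tissue change from −0.33 to 0.41 (−0.0086 with library totals). For ENSOARG00000019153 the left cardiomyocyte changes ran from −0.42 to 0.29 (chronic) and −0.43 to 0.28 (transition), and were 0.0058 and 0.0074 after recentring. Its other ranges were −0.99 to 0.28 (right chronic tissue), −0.38 to 0.27 (left transition tissue), −0.79 to 0.34 (right transition tissue), −0.059 to 0.58 (right transition cardiomyocytes) and −0.47 to 0.41 (side difference of the transition change in tissue, 0.069 with library totals). The cause was not tested. Each appendage value rests on 44 or more reads and each group on 3 sheep, and the depth of the posterior left atrium is unknown.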
